A study of Mus musculus with 6 samples.

Results

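Caveolae are small flask-shaped pits of the plasma membrane, and 8 genes that build them were followed in inguinal white adipose tissue (IngWAT), the subcutaneous fat of the groin. The genes are the caveolins Cav1, Cav2 and Cav3, the cavins Ptrf (cavin 1), Sdpr (cavin 2) and Prkcdbp (cavin 3), and the neck proteins Ehd2 and Pacsin2. They were taken by name from the deposited count files, and all 8 were found among 34745 genes. RNA from the IngWAT of 3 WT and 3 SAKI mice, 1 library per mouse, had been sequenced after poly(A) selection. SAKI mice carried an LSL-Slc35d3 transgene, in which a loxP-flanked stop keeps Slc35d3 silent until Cre removes it, together with Cre driven by the adiponectin promoter, which acts in adipocytes and not in the other cells of the tissue. WT controls are described in the study as Slc35d3-WT; Adiponectin-Cre-/-, so they had no Cre. All were males on a C57BL/6 background, given normal chow with 10% of energy as fat from 6 weeks of age for 10 weeks and taken at 16 weeks, and the labels give PBS perfusion for both groups. The comparison asks how IngWAT expression differs when adipocytes carry extra Slc35d3, and it is read here for the caveolae genes. SAKI mice differ from the controls in Cre as well as in Slc35d3, so effects of Cre and of Slc35d3 cannot be told apart.

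Caveolae are densest in adipocytes, vascular endothelium and muscle. Caveolins insert into the inner leaflet of the membrane as a hairpin and form the core of the coat, cavins bind to it from the cytosol and give the pit its shape, and EHD2 and pacsin 2 gather at its neck. In adipocytes caveolae serve as a membrane reserve against stretch and hold receptors and fatty acid carriers. Loss of CAV1 or of cavin 1 causes lipodystrophy in people and in mice.

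The depth was similar in all libraries, with 15354161 to 18787036 counts assigned to genes, and 15400 genes passed the filter on low counts. Levels are given as CPM, counts scaled to a common library total, after TMM scaling for library composition. Slc35d3, the targeted gene, was at 73.3 to 82.1 CPM in WT mice and 745 to 793 CPM in SAKI mice, which matches the labels. One WT mouse, WT 2, stood with the SAKI mice on the first principal component, at 24.4 against 20.96 to 27.8, while WT 1 and WT 3 were at -40.6 and -58.1. Results are therefore given with and without WT 2. That choice was made after the data were seen. Leaving out the WT mouse most like the SAKI mice narrows the WT spread, so adjusted p values without WT 2 run low. They are given as a description of how much rests on this mouse. With all 6 libraries, 5 genes had an adjusted p under 0.05 in edgeR's quasi-likelihood test, 0.0325% of the genes tested, and 2827 had an unadjusted p under 0.05. Without WT 2, 2598 genes had an adjusted p under 0.05 in that test and 5518 had an unadjusted p under 0.05.

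Cav1 and Cav2 lie side by side on chromosome 6 of GRCm38, both on the plus strand. Cav2 takes 6:17281185-17289115 and Cav1 takes 6:17306335-17341452, with 17219 bases between them. Cav3 lies on the same chromosome at 6:112459505-112472872. The remaining genes stand alone, with Ptrf at 11:100956733-100970887, Sdpr at 1:51289126-51302960, Prkcdbp at 7:105480607-105482197, Ehd2 at 7:15946977-15967567 and Pacsin2 at 15:83375607-83464606. To show the sequence just before the start of genes that were lower, overlapping and higher in SAKI mice, 4 promoters are printed from RefSeq (GRCm38.p6), each 250 bases that end at the base before the annotated start. They are those of Cav1 (chr6:17306085-17306334, plus strand), Cav2 (chr6:17280935-17281184, plus strand), Sdpr (chr1:51288876-51289125, plus strand) and Pacsin2 (chr15:83464607-83464856, minus strand). Capitals mark GGGCGG (the GC box, CCGCCC on the other strand) and CCAAT, which reads ATTGG on the other strand.
Cav1: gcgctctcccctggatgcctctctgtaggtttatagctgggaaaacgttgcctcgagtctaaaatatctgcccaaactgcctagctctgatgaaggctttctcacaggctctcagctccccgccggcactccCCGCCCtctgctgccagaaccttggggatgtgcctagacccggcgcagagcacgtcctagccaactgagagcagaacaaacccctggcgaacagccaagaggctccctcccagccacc
Cav2: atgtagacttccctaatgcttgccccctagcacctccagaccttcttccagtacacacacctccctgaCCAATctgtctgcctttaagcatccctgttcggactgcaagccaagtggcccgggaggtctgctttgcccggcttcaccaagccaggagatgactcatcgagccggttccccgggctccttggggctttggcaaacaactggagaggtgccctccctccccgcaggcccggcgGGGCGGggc
Sdpr: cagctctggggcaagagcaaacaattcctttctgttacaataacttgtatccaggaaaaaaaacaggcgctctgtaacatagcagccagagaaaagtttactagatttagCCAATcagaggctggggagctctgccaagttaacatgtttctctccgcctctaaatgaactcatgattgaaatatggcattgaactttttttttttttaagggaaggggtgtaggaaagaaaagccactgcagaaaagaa
Pacsin2: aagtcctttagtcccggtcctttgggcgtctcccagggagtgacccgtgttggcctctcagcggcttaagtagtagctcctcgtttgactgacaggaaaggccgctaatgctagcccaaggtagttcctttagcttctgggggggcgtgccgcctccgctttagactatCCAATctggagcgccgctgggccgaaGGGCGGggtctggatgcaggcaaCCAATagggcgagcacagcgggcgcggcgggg

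The RefSeq table held promoters for 7 of the 8 genes, and that of Prkcdbp was not among them. For Ptrf and Ehd2 the RefSeq start differs from the gene start given above. The Ptrf window (11:100970618-100970867) lies within the gene span, so its motifs are before the RefSeq start only. The Ehd2 window (7:15967536-15967785) overlaps the gene span in part. A GC box was found in the 250 bases of Cav1, Cav2, Ptrf, Ehd2 and Pacsin2, and in 33.0% of all 27025 promoters of this length, 1 per gene. CCAAT was found in those of Cav2, Ptrf, Sdpr, Ehd2 and Pacsin2, and in 34.5% of all promoters. TATAA, read on both strands, was found in those of Cav1 and Cav3, and in 23.5% of all. TGACTCA was found in that of Cav2 alone, and in 4.43% of all, and CACGTG in none of the 7, against 6.04% of all. No 2 of the motifs share letters within these promoters. Sdpr had the lowest share of G and C among the 7, at 40.4%, where the median of all promoters was 52.0% and the other members were at 56.0 to 67.6%. Neither motif in capitals separates the genes that were lower in SAKI mice from the one that was higher, since Cav2 and Pacsin2 hold both.

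Of the 8 genes, Cav1, Cav2, Ptrf, Prkcdbp and Ehd2 had every SAKI mouse below every WT mouse, Pacsin2 had every SAKI mouse above every WT mouse, and Cav3 and Sdpr overlapped. Among all genes tested, 12.4% had non-overlapping groups with SAKI lower and 13.0% with SAKI higher. None of the 8 passed an adjusted p of 0.05 with all 6 libraries. Without WT 2, the 5 genes Cav1, Cav2, Ptrf, Prkcdbp and Ehd2 passed as lower, where 9.14% of all genes did so, and no member passed as higher, where 7.41% did. In DESeq2 with all libraries, Cav1, Ptrf, Prkcdbp and Ehd2 passed as lower, against 2.69% of all genes, and no member passed as higher, against 2.01%. The tissue was sequenced in bulk, so fewer cells of a type and less RNA per cell cannot be told apart.

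**Figure D1:**
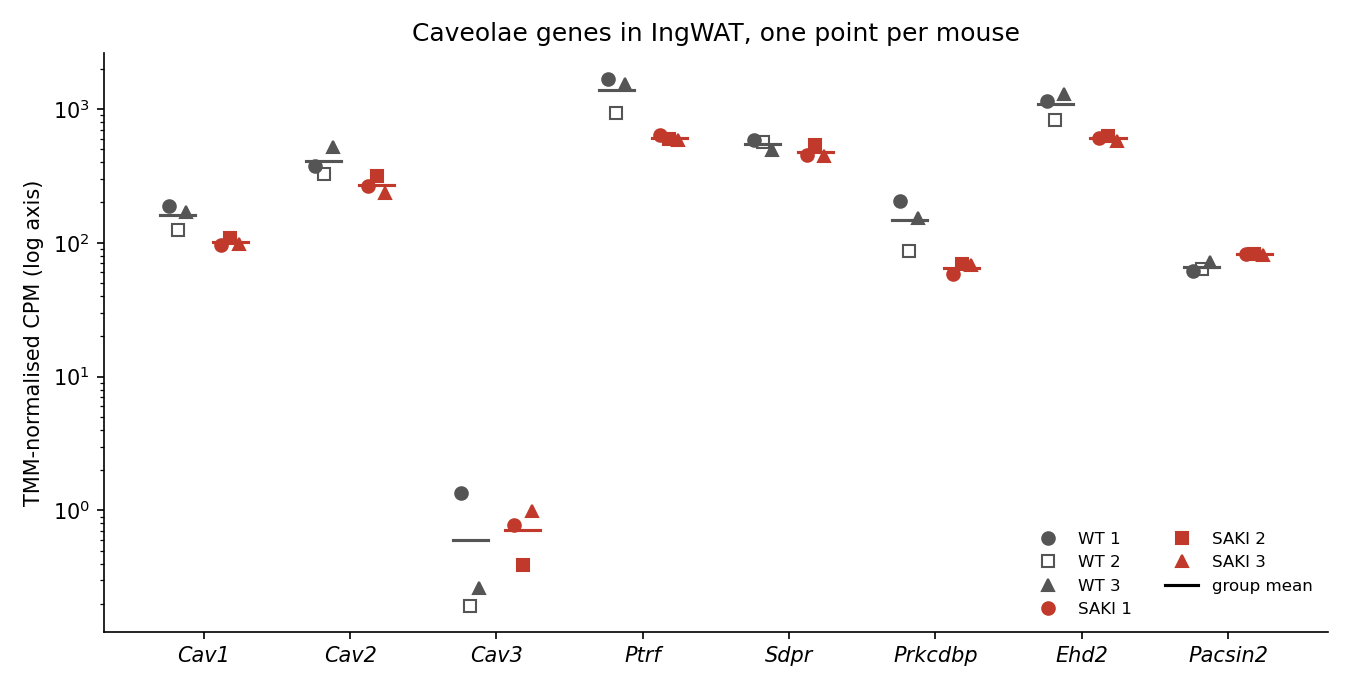
Level of each caveolae gene in each mouse, as TMM-normalised CPM on a log axis, with bars at the group means. WT mice are grey (WT 2 as an open square) and SAKI mice red, and in Cav1, Cav2, Ptrf, Prkcdbp and Ehd2 the 3 red points lie below all grey points with WT 2 the nearest of the grey ones.

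Cav1 encodes caveolin 1, without which cells other than muscle form no caveolae. It was at 187, 125 and 170 CPM in WT mice 1 to 3, and at 96.2, 108 and 97.9 CPM in SAKI mice 1 to 3. All 3 SAKI mice were below all WT mice, and the nearest pair was WT 2 and SAKI 2. The log2 fold change (SAKI over WT) was -0.67 with a standard error (SE) of 0.16 and an adjusted p of 0.170 in edgeR. Without WT 2 it was -0.82 with an adjusted p of 0.00705, and DESeq2 with all libraries gave an adjusted p of 0.0107.

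Cav2 encodes caveolin 2, which joins caveolin 1 in mixed complexes and depends on it to reach the surface. Its level was 374, 326 and 518 CPM in WT mice and 264, 314 and 236 CPM in SAKI mice. The groups were apart, but narrowly, between WT 2 and SAKI 2. SAKI over WT, the log2 fold change was -0.58 (SE 0.20, edgeR adjusted p 0.224). It was -0.71 without WT 2, with an adjusted p of 0.0460, the weakest of the 5 that passed there. The DESeq2 adjusted p with all libraries was 0.0945.

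In neither neighbour of the pair were the groups apart. Tes, which encodes a focal adhesion protein and ends 175356 bases before Cav2, had a log2 fold change of 0.08 (SE 0.20) with an edgeR adjusted p of 0.857. Met, the receptor of hepatocyte growth factor, starts 122347 bases after Cav1 and had a log2 fold change of 0.04 (SE 0.20) with an edgeR adjusted p of 0.927. WT 2 was the lowest mouse for Tes and the highest for Met. An antisense gene, Gm15581, spans Cav1 and Cav2 without sharing an exon base with either and had at most 1 count in a library.

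Cav3 encodes the muscle caveolin. It was close to the limit of the assay, with 22 counts in WT 1, 3 in WT 2 and 4 in WT 3, against 12 in SAKI 1, 6 in SAKI 2 and 19 in SAKI 3. On the CPM scale these were 1.35, 0.195 and 0.262 in WT mice and 0.782, 0.388 and 0.982 in SAKI mice. The groups overlapped, with WT 1 the highest and WT 2 the lowest of all. Its log2 fold change was 0.25 with an SE of 0.75 and an edgeR adjusted p of 0.876, and its 95% interval of -1.52 to 2.02 allows a sizeable difference either way. It turned to -0.16 without WT 2, to -0.10 without WT 3 and to -0.05 without SAKI 3. The exact 95% Poisson interval of the 3 counts in WT 2 was 0.619 to 8.77 counts, which covers counting error only.

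Skeletal muscle markers varied between mice in much the same order. The summed level of 12 markers was 7048, 595 and 1033 CPM in WT mice 1 to 3 and 3341, 453 and 2028 CPM in SAKI mice 1 to 3. The 3 mice with the most marker RNA, WT 1, SAKI 1 and SAKI 3, were also the 3 with the most Cav3. Myh4, a fast muscle myosin, was at 2610 CPM in WT 1 and 115 CPM in SAKI 2. Murc (cavin 4), the muscle cavin, was at 4.66, 1.04 and 1.64 CPM in WT mice and 3.45, 0.582 and 1.81 CPM in SAKI mice, with the same 3 mice highest. The part of muscle RNA in the Cav3 level was not tested.

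**Figure D2:**
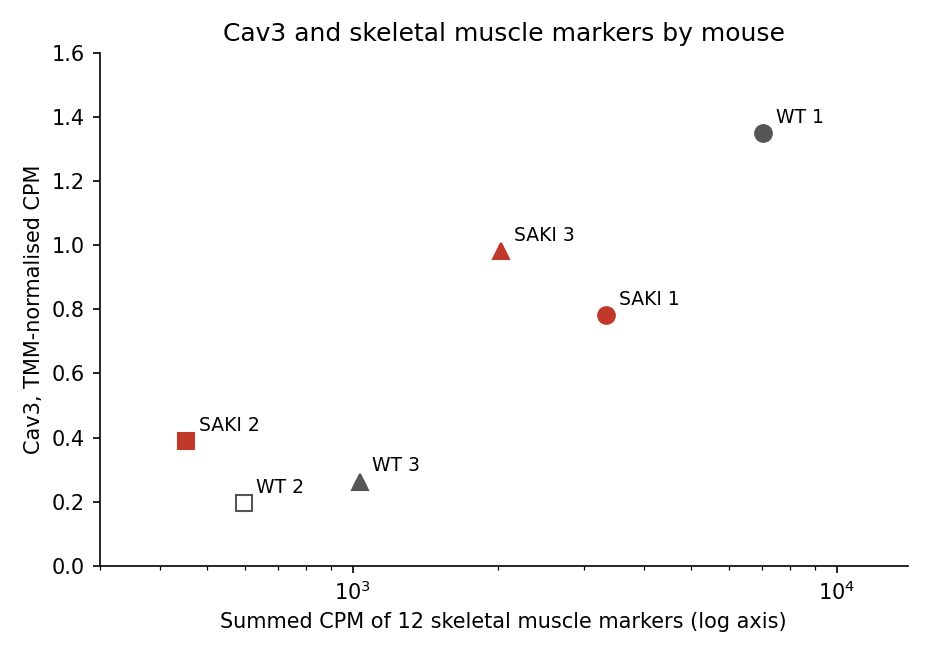
Cav3 level (TMM-normalised CPM) against the summed CPM of 12 skeletal muscle markers (log axis), 1 point per mouse, WT grey and SAKI red. WT 1, with 7048 CPM of marker RNA, has the highest Cav3 level at 1.35 CPM, and both genotypes lie among the low and the high points.

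Ptrf encodes cavin 1, the cavin that every caveola needs. It had the highest level of the members in WT mice, at 1663, 929 and 1543 CPM in WT mice and 641, 599 and 584 CPM in SAKI mice. SAKI mice lay within a narrow range below all WT mice, and WT 2 was the nearest of the WT mice to them. Ptrf had a log2 fold change of -1.18 (SE 0.23), or 0.441 times the WT level, with an edgeR adjusted p of 0.148. Without WT 2 it was -1.40 with an adjusted p of 0.00234, and the DESeq2 adjusted p with all libraries was 7.3e-05.

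Prkcdbp encodes cavin 3, which binds caveolin 1 and acts in the traffic of caveolae. It was at 207, 86.6 and 153 CPM in WT mice and 58.1, 69.4 and 68.4 CPM in SAKI mice. The groups did not overlap, and WT 2 was closer to the SAKI mice than to WT 1 or WT 3. In edgeR the log2 fold change was -1.19 (SE 0.29, edgeR adjusted p 0.170), and without WT 2 it was -1.46 (adjusted p 0.00522). In DESeq2 the adjusted p with all libraries was 0.00462. An annotated transcript of the other strand, Gm45667, shares 374 exon bases with Prkcdbp, and reads of this stretch cannot be assigned to a strand since the strand setting is not given in the sources used here.

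Sdpr encodes cavin 2, which helps curve the membrane and is abundant in endothelium. Its level was 585, 561 and 491 CPM in WT mice and 452, 538 and 441 CPM in SAKI mice. SAKI 2 lay above WT 3, so the groups overlapped. The log2 fold change was -0.19 (SE 0.13, 95% interval -0.51 to 0.12, edgeR adjusted p 0.463). It was -0.17 without WT 2, and the lowest adjusted p of any alternative was 0.418.

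Ehd2 encodes an ATPase that forms rings at the neck and holds caveolae at the surface. It was at 1155, 827 and 1295 CPM in WT mice and 609, 623 and 575 CPM in SAKI mice. All SAKI mice were below all WT mice, and WT 2 was again the nearest of the WT mice. Ehd2 had a log2 fold change of -0.86 (SE 0.18, edgeR adjusted p 0.155), and without WT 2 it was -1.02 (adjusted p 0.00522). The DESeq2 adjusted p with all libraries was 0.000906.

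Pacsin2 encodes an F-BAR protein that bends membrane at the neck, and it is made in most cell types. Its level was 61.2, 63.9 and 71.8 CPM in WT mice and 83.0, 82.3 and 81.0 CPM in SAKI mice. It was the one member whose SAKI mice were all above the WT mice, and WT 2 was not set apart from the other WT mice. The log2 fold change was 0.32 (SE 0.10, 95% interval 0.09 to 0.56, edgeR adjusted p 0.201). Without WT 2 it was 0.31 (adjusted p 0.0923), and the DESeq2 adjusted p with all libraries was 0.147, so the difference did not pass in any of these fits.

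**Figure D3:**
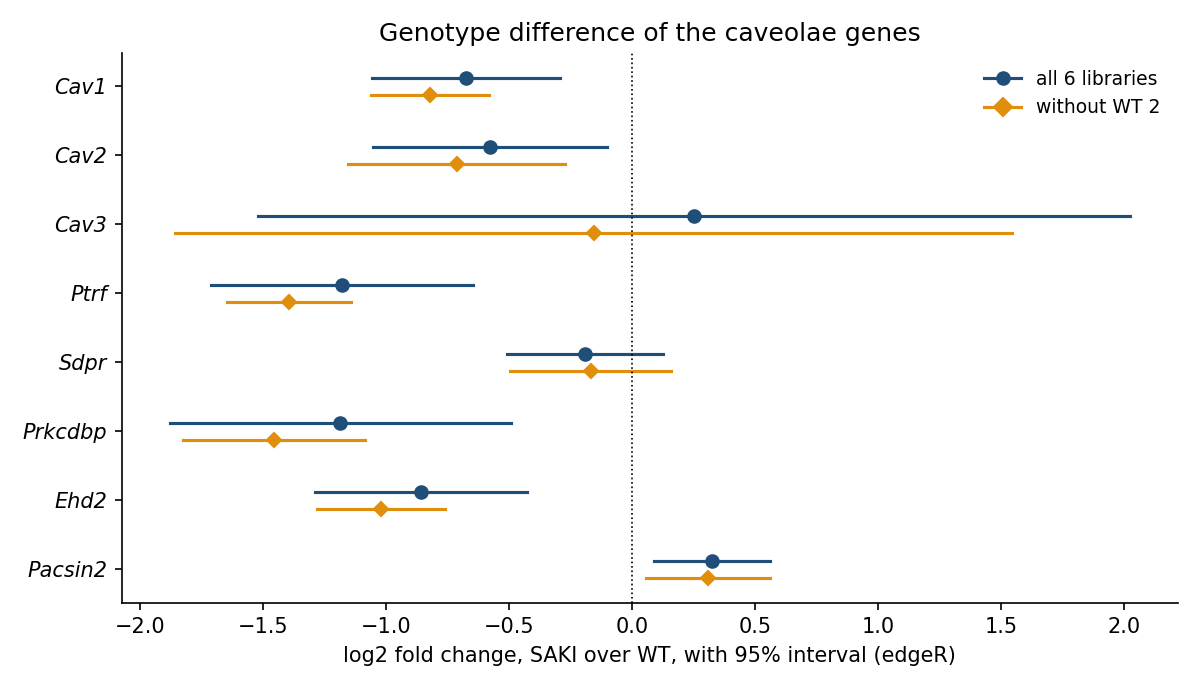
Log2 fold change of each caveolae gene (SAKI over WT) with the unadjusted 95% interval from edgeR, for all 6 libraries (circles) and without WT 2 (diamonds). Ptrf and Prkcdbp lie farthest to the left at -1.18 and -1.19, the Sdpr and Cav3 intervals cross 0, and without WT 2 the intervals of Cav1, Ptrf, Prkcdbp and Ehd2 are narrower.

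Summed over the 8 genes, the level was 4234, 2918 and 4241 CPM in WT mice and 2205, 2335 and 2084 CPM in SAKI mice. The groups were apart, with WT 2 nearest to the SAKI mice. Ptrf and Ehd2 made up most of this sum.

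Levels of different genes can be compared only per length, and the deposited FPKM values, which scale counts to gene length and library total, were used for this. In WT mice the mean FPKM was 331 ± 104 (SD, n = 3) for Ptrf, 202 ± 45.3 for Ehd2, 178 ± 23.7 for Sdpr, 144 ± 64.2 for Prkcdbp, 91.2 ± 20.3 for Cav2, 18.98 ± 4.43 for Cav1, 12.1 ± 0.614 for Pacsin2 and 0.534 ± 0.597 for Cav3. Ptrf was above Ehd2, Prkcdbp above Cav2, Cav2 above Cav1 and Cav1 above Pacsin2 in every WT mouse, while the order of Ehd2 and Sdpr, and of Sdpr and Prkcdbp, varied between mice. The ranges of neighbours over the 3 mice overlapped from Ptrf down to Cav2. In SAKI mice the order changed at the top, with Sdpr at 157 ± 17.5 (SD, n = 3), Ptrf at 147 ± 3.98 and Ehd2 at 113 ± 3.45, of which Sdpr and Ptrf overlapped. Pacsin2 came before Cav1 there, at 15.3 ± 0.160 against 12.0 ± 0.825.

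The length behind the FPKM values bears on this order. For Cav1 it was 8429 bases, which equals the sum of every distinct annotated exon with overlapping exons counted more than once, while its exons merged in GENCODE M21 cover 3444 bases. For Ptrf, whose length was made in the same way, the values were 4149 and 3587 bases. For Prkcdbp they were 1035 and 1662 bases, but these come from different gene models. Its span as deposited with the counts, 7:105480607-105482197, is shorter than the 7:105480083-105482300 of GENCODE M21. Its merged-length values thus divide counts made on the shorter span by the exons of the longer one. With merged lengths, a choice made after the data were seen, the mean in WT mice was 46.4 ± 10.8 (SD, n = 3) for Cav1, 120 ± 26.8 for Cav2 and 89.6 ± 40.0 for Prkcdbp. Cav2 then came before Prkcdbp, an order that rests on the longer gene model of Prkcdbp. Cav1 came before Pacsin2 in both groups. In SAKI mice Ptrf then came before Sdpr, at 171 ± 4.61 against 157 ± 17.5 (SD, n = 3), within the Sdpr spread. Cav1 remained below Cav2 on both scales, and comparisons of 1 gene between mice do not depend on the length.

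The make-up of the cavin transcripts was set apart by genotype for Ptrf and Sdpr, as a description with no test. Ptrf took 50.6, 45.6 and 54.7% of the summed FPKM of Ptrf, Sdpr and Prkcdbp in WT mice and 43.1, 37.3 and 40.1% in SAKI mice. Sdpr took 24.2, 37.4 and 23.6% in WT mice and 41.3, 45.4 and 41.1% in SAKI mice. For both genes the groups were apart, in opposite directions, and WT 2 was the WT mouse nearest to the SAKI mice. Shares depend on each other, so lower Ptrf and Prkcdbp levels raise the Sdpr share. The Sdpr level itself was not higher, with means of 546 CPM in WT and 477 CPM in SAKI mice and overlapping groups. The Prkcdbp share overlapped, at 17.0 to 25.2% in WT mice and 15.6 to 18.8% in SAKI mice. With merged exon lengths the Ptrf share was 58.3% ± 5.43 (SD, n = 3) in WT mice and 46.5% ± 3.01 in SAKI mice, again without overlap. These shares take Prkcdbp at the length of its longer gene model.

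**Figure D4:**
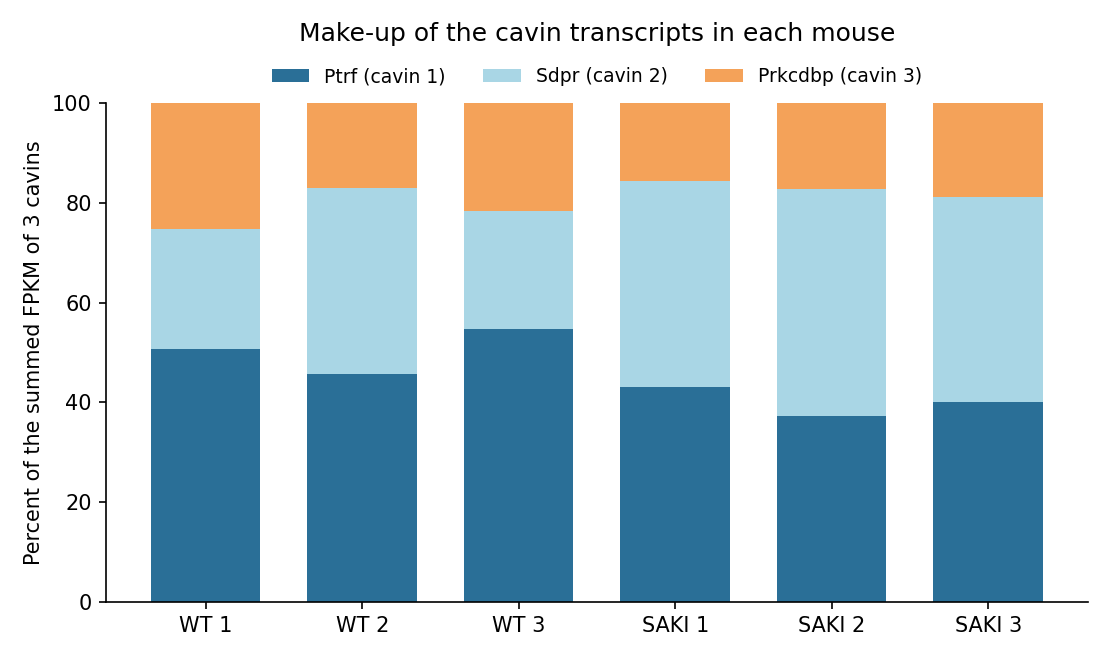
Share of Ptrf, Sdpr and Prkcdbp in the summed FPKM of the 3 cavins, 1 bar per mouse, in percent. The Ptrf part is 45.6 to 54.7% in WT mice and 37.3 to 43.1% in SAKI mice, and the Sdpr part is larger in SAKI mice, though the Sdpr level itself is not higher there.

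Each gene was also set against Cav1 of the same library, which removes the scaling between libraries, as the log2 ratio of FPKM values. The Ptrf ratio was 4.18, 3.92 and 4.21 in WT mice and 3.76, 3.50 and 3.60 in SAKI mice, lower in all SAKI mice, with a difference of -0.48. The Sdpr ratio was 3.11, 3.63 and 2.99 in WT mice and 3.70, 3.78 and 3.64 in SAKI mice, higher in all SAKI mice by 0.46. The Pacsin2 ratio was -0.97, -0.32 and -0.60 in WT mice and 0.43, 0.26 and 0.37 in SAKI mice, higher by 0.98. For these 3 ratios the two-sided exact permutation p was 0.1, the smallest that 3 against 3 libraries can give, and 0.233 after adjustment over the 7 ratios. Cav1 was itself lower in SAKI mice, with a log2 fold change of -0.67, so an unchanged gene would have a higher ratio there. The level of Sdpr was not higher, at -0.19 with overlapping groups. How many of all genes have a ratio to Cav1 that is apart was not computed.

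The other ratios overlapped between the groups. The Prkcdbp ratio differed by -0.45 and the Ehd2 ratio by -0.18, each with an exact permutation p of 0.2. The Cav2 ratio differed by 0.09 with an exact permutation p of 0.7, with WT mice at 1.94 to 2.54 and SAKI mice at 2.21 to 2.48. The Cav3 ratio differed by 1.36 with an exact permutation p of 0.2, on the few counts given above. None of the 7 ratios could pass a threshold of 0.05 with this number of mice.

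**Figure D5:**
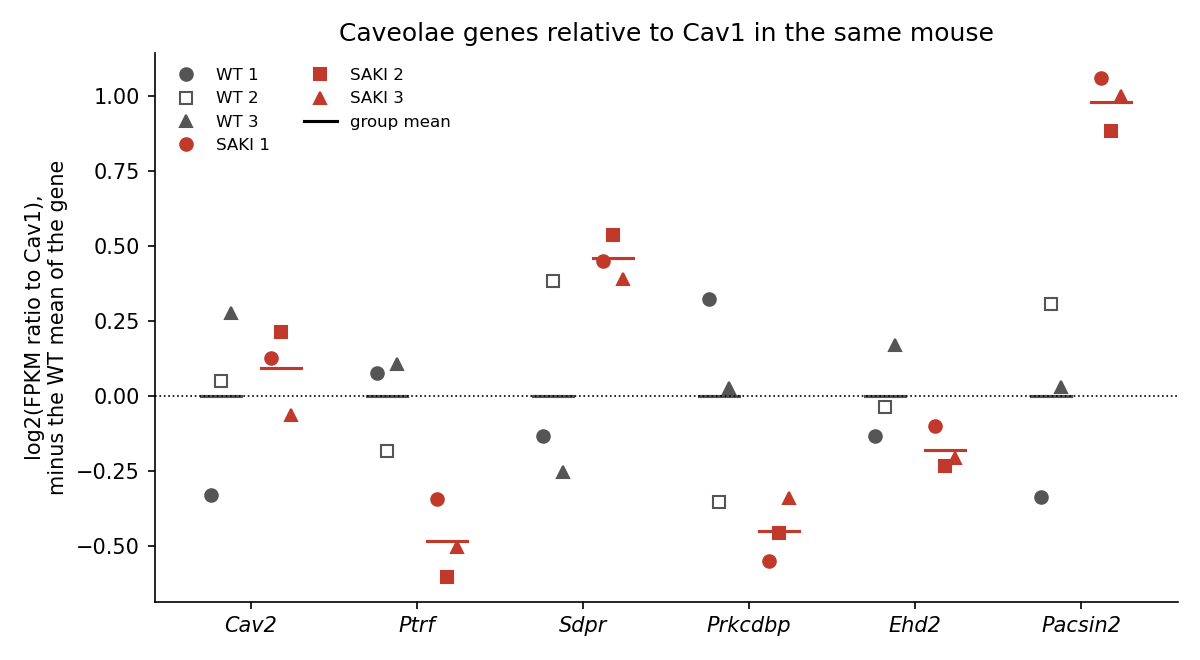
Log2 FPKM ratio of each gene to Cav1 in the same mouse, minus the WT mean of that gene, with WT mice grey (WT 2 open) and SAKI mice red and bars at the group means. Ptrf lies lower in SAKI mice by 0.48, Sdpr higher by 0.46 and Pacsin2 higher by 0.98, without overlap, and Cav2, Prkcdbp and Ehd2 overlap. Cav1 itself is lower in SAKI mice, which raises every ratio there.

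Caveolae are densest in adipocytes and endothelium, so the genes were placed beside markers of both cell types in the same libraries. The defining markers of fat were abundant, with Fabp4, the fatty acid binding protein of adipocytes, at 9773 ± 1127 and 7800 ± 518 CPM (SD, n = 3) in WT and SAKI mice, and Lpl, lipoprotein lipase, at 5415 ± 861 and 5025 ± 458 CPM. None of the 12 adipocyte markers passed in edgeR, all 12 had a log2 fold change below 0 with a median of -0.39, and 6 had non-overlapping groups with SAKI lower, where 12.4% of all genes did. Their mean log2 level was 10.4, 10.7 and 10.7 in WT mice and 10.3, 10.2 and 10.2 in SAKI mice, lower in all SAKI mice by 0.40. Of the 14 blood endothelial markers, 10 lay below 0 and 7 had non-overlapping groups with SAKI lower, with a median of -0.30, and none passed. Cdh5, the endothelial cadherin, was at 330 ± 10.1 CPM (SD, n = 3) in WT and 289 ± 9.91 CPM in SAKI mice, and Pecam1 at 307 ± 16.3 and 296 ± 17.9 CPM. The median over all genes tested was -0.0035, with 7759 genes below 0 and 7641 above.

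The caveolae genes were not all placed alike against these markers. Ptrf, less the adipocyte mean, was at 0.28, -0.89 and -0.13 on the log2 scale in WT mice and at -0.98, -1.003 and -0.97 in SAKI mice, so it was still lower in all SAKI mice, though WT 2 lay close to them. Less the endothelial mean, Ptrf was at 3.87, 3.09 and 3.65 in WT mice and at 2.65, 2.63 and 2.64 in SAKI mice. Cav1, Prkcdbp and Ehd2 were also apart and lower beside the endothelial markers, by 0.41, 0.86 and 0.59, but overlapped beside the adipocyte markers. Cav2 and Sdpr overlapped beside both lists, and Pacsin2 was higher beside both, by 0.72 and 0.57. The means of both lists were themselves lower in SAKI mice (-0.40 and -0.24), so an unchanged gene would also be higher beside them. The fibroblast mean was higher in SAKI mice by 0.58 with overlap, and the macrophage mean by 0.83 without overlap. An unchanged gene would therefore be lower beside these lists, and Pacsin2 overlapped beside both. Cav1, Ptrf, Prkcdbp and Ehd2 were apart and lower beside both of these, and Cav2 and Sdpr beside the macrophage markers only. The level of Sdpr itself overlapped, with a log2 fold change of -0.19. Beside the 12 smooth muscle and pericyte markers, Ptrf was at 3.73 to 4.66 in WT mice and 3.29 to 3.81 in SAKI mice and overlapped, as did Cav1, Cav2, Sdpr, Prkcdbp and Ehd2, while Pacsin2 was higher by 0.67 without overlap. The part of cell numbers in these differences was not tested.

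Fibroblast and macrophage markers, taken as list means, set WT 2 with the SAKI mice as well. Single markers could differ, and WT 2 was the lowest WT mouse for Thy1 (68.2 CPM) and Fcgr1 (8.04 CPM) of these lists. The 10 fibroblast and progenitor markers had a mean log2 level of 8.43 in WT 2 and 8.28 to 8.39 in SAKI mice, against 7.58 and 7.26 in WT 1 and WT 3. Col3a1, a fibrillar collagen, was at 2131, 5139 and 1523 CPM in WT mice and 4908 to 5663 CPM in SAKI mice, and Col1a1 at 951, 1769 and 591 CPM and 1610 to 2015 CPM. The 8 macrophage markers showed the same split, with a mean log2 level of 6.996 in WT 2, 7.02 to 7.34 in SAKI mice and 6.11 and 5.79 in the other WT mice. Non-overlapping groups with SAKI higher were found in 4 of the macrophage markers, where 13.0% of all genes had them, and in none of the fibroblast markers. Lyz2, the macrophage lysozyme, was at 618 ± 202 and 1060 ± 82.9 CPM (SD, n = 3) in WT and SAKI mice, and Cd163, a scavenger receptor, at 127 ± 136 and 338 ± 47.5 CPM. Mitochondrial transcripts took 13.8% of the counts in WT 2 and 13.1 to 15.9% in SAKI mice, against 7.31 and 8.78% in WT 1 and WT 3. WT 2 was thus the WT mouse highest in these measures and lowest in Cav1, Cav2, Ptrf, Prkcdbp and Ehd2, and the part of either in the gene levels was not tested.

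The remaining marker lists gave no call in edgeR either. Smooth muscle and pericyte markers, cells also rich in caveolae, had 11 of 12 below 0 with a median of -0.34 and 3 of them apart with SAKI lower (12.4% of all genes were), with Rgs5 at 389 ± 30.9 and 381 ± 47.8 CPM (SD, n = 3) and Pdgfrb at 172 ± 38.3 and 108 ± 11.0 CPM in WT and SAKI mice. Skeletal muscle markers had 8 of the 11 tested below 0 and none apart, with Acta1 at 472 ± 567 and 395 ± 266 CPM (SD, n = 3). Of 6 lymphatic markers tested 4 lay above 0, with Lyve1 at 181 CPM in WT 2 and 44.6 and 48.4 CPM in the other WT mice and Flt4 at 28.5 ± 5.89 and 21.9 ± 1.99 CPM (SD, n = 3), and 1 of the 7 on the list was at 0 in every library. Of 6 mesothelial markers only 2 passed the filter, Krt19 at 3.70 ± 3.00 and 0.945 ± 0.313 CPM and Lrrn4 at 1.78 ± 1.21 and 2.28 ± 0.111 CPM (SD, n = 3), and 1 was at 0 in every library. All 8 B cell markers lay above 0 with a median of 0.25. Their summed level was 775, 433 and 675 CPM in WT mice 1 to 3 and 665 to 804 CPM in SAKI mice. WT 2 alone was below the SAKI range, while WT 1 and WT 3 lay within it. Cd79a was at 137, 81.8 and 130 CPM in WT mice and 122 to 156 CPM in SAKI mice. All 8 immediate early genes, which are quick to react to stimuli, lay below 0 with a median of -0.87, with Jun at 113 ± 39.9 and 54.7 ± 2.94 CPM and Egr1 at 87.0 ± 54.7 and 27.4 ± 12.2 CPM (SD, n = 3). Of them 3 were apart with SAKI lower (12.4% of all genes were), and Egr1 overlapped. Their mean log2 level overlapped as well, at 3.76, 4.57 and 5.11 in WT mice and 4.11, 3.67 and 3.59 in SAKI mice.

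Another 34 genes tied to caveolae were read from lists of 6 roles, and none passed in edgeR with all libraries, where 0.0325% of all genes did. Plin1, Cidec, Lipe and Slc2a4 are also on the adipocyte marker list and Kdr on the endothelial one. Below 0 on the log2 fold change scale lay 26 of them, above 0 lay 8, and the median was -0.23, and 11 had non-overlapping groups with SAKI lower, where 12.4% of all genes did, and 2 with SAKI higher, where 13.0% did. Without WT 2, 4 passed as lower and 3 as higher, shares near the 9.14% and 7.41% of all genes. In DESeq2 with all libraries 3 passed as lower, against 2.69% of all genes, and 1 as higher, against 2.01%.

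Among relatives of the coat and neck proteins, 6 of 7 lay below 0, with a median of -0.33. Pacsin1, a pacsin best known from neurons, was at 8.71, 6.74 and 5.76 CPM in WT mice and 14.7, 12.9 and 14.2 CPM in SAKI mice. It was higher in all SAKI mice, as Pacsin2 was, with a log2 fold change of 0.98 (SE 0.19), an edgeR adjusted p of 0.148, 0.0309 without WT 2 and 0.00258 in DESeq2. Ehd1, an EHD ATPase of recycling endosomes, was lower in all SAKI mice, at 183 ± 18.97 CPM (SD, n = 3) in WT and 139 ± 6.86 CPM in SAKI mice, with a log2 fold change of -0.40 and an edgeR adjusted p of 0.188, or 0.0487 without WT 2. For Pacsin3, the pacsin of muscle, it was -0.42 (edgeR adjusted p 0.234).

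Flotillins build membrane domains that are distinct from caveolae, and both were lower in all SAKI mice. Flot1 was at 112, 63.2 and 98.3 CPM in WT mice and 49.0, 54.2 and 49.9 CPM in SAKI mice, with WT 2 nearest to the SAKI mice as for Cav1. Its log2 fold change was -0.84 (SE 0.21) with an edgeR adjusted p of 0.170, 0.00434 without WT 2 and 0.0109 in DESeq2. Flot2 differed less, at 111 ± 8.34 and 98.6 ± 1.16 CPM (SD, n = 3), with a log2 fold change of -0.17 and an edgeR adjusted p of 0.395.

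Genes of caveolar fission and uptake had a median of -0.02, and all 6 overlapped between the groups. Dnm1, a dynamin, was at 17.3, 40.5 and 16.1 CPM in WT mice and 33.2, 32.1 and 29.8 CPM in SAKI mice, and it passed without WT 2, the highest mouse of all, with a log2 fold change of 0.93 and an adjusted p of 0.00697 in edgeR. Flna, an actin crosslinker that links caveolae to stress fibres, had a log2 fold change of -0.26 (edgeR adjusted p 0.351) and Dnm3 one of 0.12 (edgeR adjusted p 0.744).

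Of the 6 proteins of endothelial caveolae, Nos3, the endothelial nitric oxide synthase that caveolin 1 binds, was at 43.5, 62.5 and 109 CPM in WT mice and 39.7, 39.7 and 36.4 CPM in SAKI mice. All SAKI mice were lower, with a log2 fold change of -0.90 (SE 0.31) and an edgeR adjusted p of 0.224, and 0.101 without WT 2. Plvap, which forms the diaphragm of endothelial caveolae, had a log2 fold change of -0.26 (edgeR adjusted p 0.342) with groups apart, and Nostrin, a partner of the synthase, one of 0.33 (edgeR adjusted p 0.365), with SAKI mice higher and apart.

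Of the 5 adipocyte cargo genes, Slc2a4, the insulin-responsive glucose carrier GLUT4, was at 168, 200 and 196 CPM in WT mice and 154, 144 and 142 CPM in SAKI mice, apart and lower. Its log2 fold change was -0.36 (SE 0.11) with an edgeR adjusted p of 0.198, and WT 1, not WT 2, was nearest to the SAKI mice. Scarb1, a lipoprotein receptor, had a log2 fold change of -0.34 (edgeR adjusted p 0.365) and passed as lower without WT 2, at -0.51 with an adjusted p of 0.0288. Abca1, a cholesterol exporter, had one of 0.43 (edgeR adjusted p 0.379) and passed as higher without WT 2, at 0.77 with an adjusted p of 0.00762.

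All 8 other lipodystrophy genes lay below 0, with a median of -0.43, and 4 had non-overlapping groups with SAKI lower, against 12.4% of all genes. Lmna, which encodes lamins A and C of the nuclear envelope, was at 248, 129 and 298 CPM in WT mice and 73.6, 82.4 and 82.9 CPM in SAKI mice, with WT 2 nearest to the SAKI mice. Its log2 fold change was -1.50 (SE 0.29), with an edgeR adjusted p of 0.148, 0.00192 without WT 2 and 8.19e-05 in DESeq2. Cidec, a lipid droplet protein, was at 1608 ± 144 CPM (SD, n = 3) in WT and 1194 ± 59.7 CPM in SAKI mice, with a log2 fold change of -0.43, an edgeR adjusted p of 0.198 and one of 0.0253 in DESeq2. Plin1, the perilipin of adipocytes, had a log2 fold change of -0.69 (edgeR adjusted p 0.218) and overlapped, as WT 1 lay within the SAKI range.

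The genes whose log2 CPM followed that of Cav1, Ptrf and Cav3 most closely were named from 11769 tested genes with a mean of at least 5 CPM, by Pearson's r over the 6 libraries, as a description. For Cav1 they were Plekhm1, App, Lzts2, Thop1 and Flot1, each with r of 0.997 to 0.998. For Ptrf they were Tm2d2, Cd63, Srpx2, Stub1 and Map1lc3a, with r of 0.993 to 0.997. In all 10 genes of both sets WT 2 lay between the SAKI mice and the other WT mice. Cav1 and Ptrf have the same order, so this follows from how the genes were chosen. For Cav3 they were Zmynd15, Incenp, Asb2, Rab8a and Rpl18, with r of 0.972 to 0.981, on the low counts given above.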

How the data were processed

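IngWAT mRNA of 6 mice was sequenced. For each library the authors deposited raw counts per gene, and for all libraries 1 table of FPKM values, which divide those counts by gene length and by the library total. HISAT2 2.0.4, GRCm38, StringTie 1.3.0 and Bowtie2 2.2.6 are listed in the submitters' processing notes. What counted the reads, and with which strand setting and annotation, is not given in the sources used here.

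For the main test, counts went through the quasi-likelihood test of edgeR 4.0.16 (R 4.3.3), after filterByExpr (minimum count 10, total 15) and TMM, with genotype alone, Benjamini-Hochberg adjustment over 15400 genes and a threshold of 0.05. The SE is the fold change divided by the root of F. Level ratios were tested with scipy 1.17.1. The code was tested on simulated data. Alternatives were DESeq2 1.42.0, limma 3.58.1 (voom, or log2 of FPKM with pseudocount 1 or 0.1 over 12433 genes reaching 1 in 3 libraries), other scalings and filters, a block, a marker covariate and leaving out each library.

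Named were the members, the neighbours of Cav1 and Cav2, up to 3 genes of smallest p per caveolar role, the 5 genes most like Cav1, Ptrf and Cav3, and the 2 highest markers per list, of which 1 is not reported here. Slc35d3 was added as the targeted gene, and Murc was added after its values were seen. The members and lists were chosen with earlier results of these data known. The labels name separate mice. Promoters are from RefSeq (GRCm38.p6). Positions of the members are those deposited with the counts. Merged exon lengths, neighbours and overlapping genes are from GENCODE M21 (GRCm38). At 15354161 to 18787036 counts per library, counting error is largest for Cav3, the member with the fewest counts.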

Additional observations from a re-analysis of the deposited data

How the results depend on the processing

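With all libraries 0 members, 5 genes and 0 of 34 other caveolar genes passed. Leaving out 1 library in turn gave 0 to 5 members, 1 to 2598 genes and 0 to 7 other caveolar genes, and the high values came without WT 2. Without SAKI 1 or SAKI 2, 2 genes passed, and without SAKI 3, 1 gene. DESeq2 gave 4 members, 724 genes and 4 other caveolar genes. The number of genes was 8 with no low-count filter, 9 on FPKM values with either pseudocount, 1 with a replicate block and 0 with the adipocyte marker score as a covariate, at an unadjusted count of 1569 for the last. In every other setting 0 members passed. Same-numbered WT and SAKI mice correlated at 0.036, 0.042 and 0.089 in their deviations from the group means. With 3 mice per group, whose deviations sum to 0, these values cannot show whether same-numbered mice were paired. The block left 0 members passing.

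Each of Cav1, Cav2, Ptrf, Sdpr, Prkcdbp, Ehd2 and Pacsin2 kept its direction in all 17 alternatives. The range was -1.62 to -1.03 for Ptrf, -2.13 to -0.88 for Prkcdbp, -1.02 to -0.72 for Ehd2, -1.07 to -0.55 for Cav1, -0.72 to -0.37 for Cav2, -0.34 to -0.14 for Sdpr and 0.27 to 0.49 for Pacsin2. Leaving out 1 library gave -0.16 to 1.63 for Cav3. It reversed to -2.07 with the adipocyte covariate, -0.16 without WT 2, -0.10 without WT 3 and -0.05 without SAKI 3, and the cause was not tested beyond its few counts. Leaving out 1 library, the ratio to Cav1 differed by -0.57 to -0.42 for Ptrf, 0.34 to 0.65 for Sdpr, 0.81 to 1.13 for Pacsin2, -0.62 to -0.29 for Prkcdbp, -0.25 to -0.09 for Ehd2, -0.07 to 0.23 for Cav2 and 0.99 to 2.10 for Cav3.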
